A study of Mus musculus with 10 samples.

Results

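The urea cycle and amino acid enzymes of the hepatocytes around the portal vein, Cps1, Otc, Ass1, Asl, Arg1, Nags, Gls2, Hal, Sds and Sdsl, were read by symbol from a deposited expression table of 17274 genes, and 10 of 10 were found and tested. The table covers 10 liver samples of wild-type mice in which a high-fat diet of defined amino acids without choline had induced steatohepatitis, a fatty liver disease with inflammation. Both groups had that diet and a virus vector (AAV, adeno-associated virus) given into a vein: 5 samples are from mice with a control AAV and 5 from mice whose AAV carried miR-181d-5p, a microRNA that represses messenger RNAs. No source used here gives the vectors' promoter, or the age and sex of the mice. A group without the diet or without a vector was not analysed here. Values are FPKM, fragments per kilobase of gene scaled to library depth, and libraries held 18985912 to 20657019 assigned reads.

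The urea cycle turns ammonia, which is toxic to the brain, into urea in hepatocytes. Nags makes the N-acetylglutamate that switches on Cps1. Cps1 and Otc carry out the mitochondrial steps, and Ass1, Asl and Arg1 the cytosolic ones that end in urea. Gls2 releases ammonia from glutamine in the same cells, and Hal, Sds and Sdsl take the amino group from histidine and serine. These enzymes are known to be highest near the portal vein, whereas glutamine synthetase (Glul) clears leftover ammonia next to the central vein.

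The delivered microRNA and its relatives are shown because they share a seed, the bases that pair with messenger RNAs. The mature mouse sequences are from RefSeq (GRCm38.p6, 5′ to 3′), with the seed, positions 2 to 8, in capitals.
mmu-miR-181a-5p: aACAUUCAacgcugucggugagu
mmu-miR-181b-5p: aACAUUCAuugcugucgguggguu
mmu-miR-181c-5p: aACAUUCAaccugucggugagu
mmu-miR-181d-5p: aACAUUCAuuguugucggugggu
Matches to this seed were searched in the longest coding-transcript 3' UTR of each enzyme gene, as an 8mer (TGAATGTA), a 7mer-m8 (TGAATGT), a 7mer-A1 (GAATGTA) or a 6mer (GAATGT). Hal held 1 match, an 8mer, and the other 9 genes held 0 of any class in UTRs of 154 to 1871 nt. For comparison, 5.9% of the 11770 tested genes that have a 3' UTR in the annotation contained an 8mer and 35.5% a 6mer or longer. The median 3' UTR of those genes was 1114 nt, longer than that of most enzyme genes. The part of UTR length in these counts was not tested. The Hal site lies in the 3' UTR, in exon 20 of 20, at chr10:93518242-93518249 on the forward strand (mm10), beginning at base 1920 of 2982 of the UTR. It is shown with its flanks and the match in capitals, since Hal is the enzyme gene with a predicted way for the microRNA to pair.
Hal 8mer: gtcatttttgcTGAATGTAaacatacacat
The gene length implied by the FPKM of Hal was 2776 nt, against 5319 nt for the annotated transcript with the site. Whether these livers make the long form was not tested.

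None of the 10 enzyme genes differed between the groups beyond the spread of the livers. In limma, a linear model test run over 12053 genes, 0 of the 10 passed at a Benjamini-Hochberg adjusted p of 0.05, as did 0 of all genes tested (0%). At an unadjusted p under 0.05 there were 0 of 10, against 1768 of all genes (14.7%: 5.04% higher and 9.63% lower with miR-181d-5p). The higher genes were 34.3% of those 1768, a share of 51.4% after quantile normalization and 21.5% when FPKM were scaled to 1 common sum. The groups overlapped in 10 of 10 enzyme genes, and did not overlap in 2.47% of all genes. The estimates split into 5 higher and 5 lower, with a median log2 change of 0.02, against -0.02 over all genes tested; 6 were higher after quantile normalization and 7 with median-ratio scaling. Changes are on the log2(FPKM + 1) scale, miR-181d-5p minus control.

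**Figure D1:**
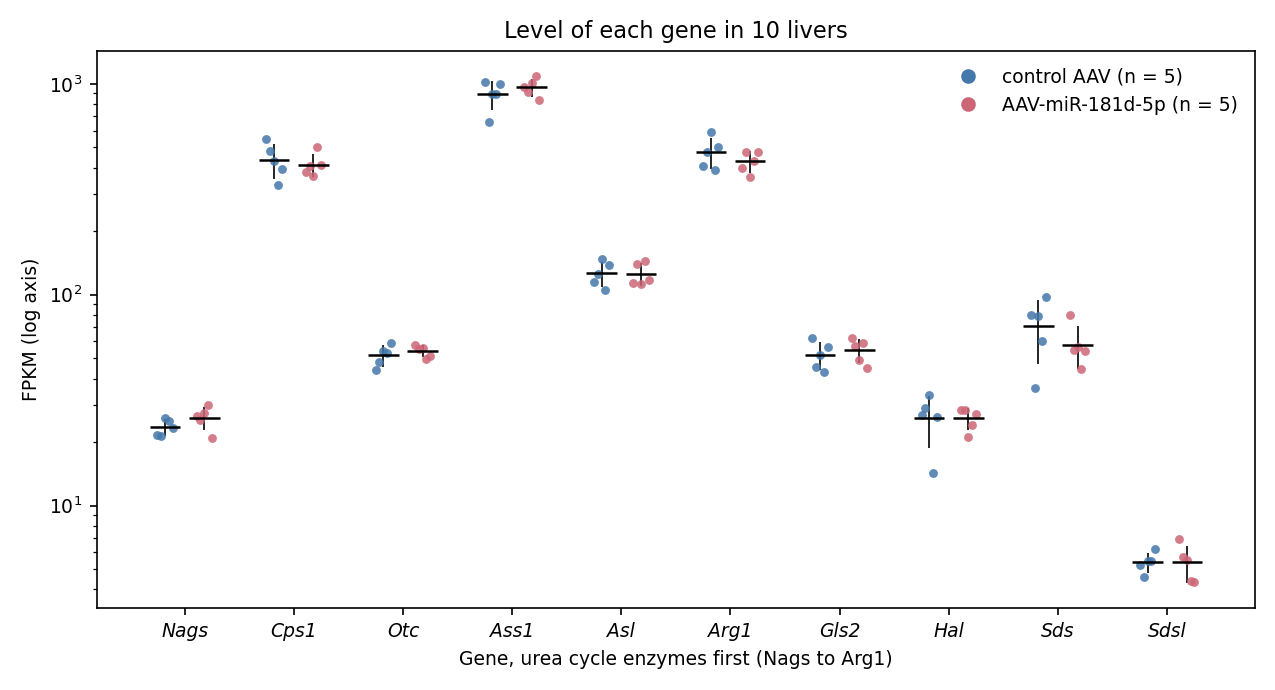
FPKM of the 10 enzyme genes on a log axis, with each point a liver, horizontal bars the mean and vertical bars the SD (n = 5 per group). In each gene the 2 groups overlap, and Ass1 lies highest and Sdsl lowest in both.

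Nags, the synthase that supplies the activator of the cycle, had the smallest p of the 10. It stood at 21.5, 21.3, 26.1, 25.2 and 23.2 FPKM in control livers 1 to 5 and at 26.6, 25.5, 27.6, 30 and 20.9 FPKM in miR-181d-5p livers 1 to 5. The means were 23.5 ± 2.18 and 26.1 ± 3.37 FPKM (SD, n = 5 each). Of the miR-181d-5p livers, 4 lay above the control mean, while liver 5 was the lowest of all 10. The log2 change was 0.14 (SE 0.10, 95% interval -0.06 to 0.35), with an adjusted p of 0.483 by limma. Without miR-181d-5p liver 5 it was 0.22, with an unadjusted p of 0.0223 and an adjusted p of 0.296, and without miR-181d-5p liver 4, the highest, it was 0.094 (adjusted p = 0.767 by limma).

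Cps1, the carbamoyl phosphate synthetase that opens the cycle, drew 471030 reads over the 10 livers. Control livers held 549, 481, 432, 331 and 394 FPKM, and miR-181d-5p livers 383, 408, 365, 500.1 and 414 FPKM. The highest and the lowest of the 10 livers were both controls, and 5 of 5 miR-181d-5p livers lay inside the control range. Means were 438 ± 83.0 and 414 ± 51.9 FPKM, a log2 change of -0.07 (SE 0.13, 95% interval -0.35 to 0.21; adjusted p = 0.826 by limma). Values of FPKM + 1 under 78.7% or over 115.7% of control thus lay outside the interval. Without control liver 1, the highest, the log2 change of Cps1 was 0.019.

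Otc, which joins carbamoyl phosphate to ornithine, varied least across all 10 livers, 1.35-fold from lowest to highest. It stood at 43.8, 47.9, 53.9, 52.8 and 59.3 FPKM in controls and at 58.0, 55.1, 56.1, 49.7 and 51.1 FPKM with miR-181d-5p. The controls spanned the whole range, with liver 1 lowest and liver 5 highest. The log2 change was 0.07 (SE 0.08, 95% interval -0.11 to 0.25), the narrowest interval of the 10, with an adjusted p of 0.704 by limma. Leaving out 1 liver at a time gave 0.015 (without control liver 1) to 0.12 (without control liver 5).

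Ass1, which builds argininosuccinate from citrulline and aspartate, was the most abundant of the 10 per length. Control livers held 1018, 658, 891, 892 and 993 FPKM, and miR-181d-5p livers 965, 919, 1009, 1088 and 837 FPKM. Control liver 2 was the lowest of all and miR-181d-5p liver 4 the highest. Means were 890.2 ± 142 and 963 ± 94.3 FPKM, a log2 change of 0.12 (SE 0.12, 95% interval -0.13 to 0.38; adjusted p = 0.628 by limma). Without control liver 2 the change was 0.020.

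Asl, the lyase that splits argininosuccinate into arginine and fumarate, had nearly equal means of 126 ± 16.8 and 126 ± 15.6 FPKM. Its values were 115, 125, 147, 105 and 138 FPKM in controls and 114, 140.4, 112, 145 and 117 FPKM with miR-181d-5p. All 5 miR-181d-5p livers lay inside the control range. The log2 change was -0.0024 (95% interval -0.23 to 0.23; adjusted p = 0.993 by limma).

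Arg1, the arginase that releases urea, was at 409, 477, 588, 389 and 501 FPKM in controls. With miR-181d-5p it was at 397, 477, 359.6, 431 and 476 FPKM. Control liver 3 was the highest and miR-181d-5p liver 3 the lowest. The means, 473 ± 79.2 and 428 ± 51.0 FPKM, gave a log2 change of -0.14 (SE 0.12, 95% interval -0.39 to 0.12; adjusted p = 0.594 by limma). Without control liver 3 it was -0.054. Macrophages can also express Arg1, and 11 of 14 macrophage markers were lower with miR-181d-5p (median log2 change -0.26, 0 passing). Their summed FPKM ran from 2046 to 2857 in controls and from 1363 to 2656 with miR-181d-5p. Lyz2 made up most of that sum, at 1192 to 1810 FPKM in controls and 718 to 1731 FPKM with miR-181d-5p. No marker was listed at 0 in all livers, and the part of these markers in the Arg1 values was not tested.

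**Figure D2:**
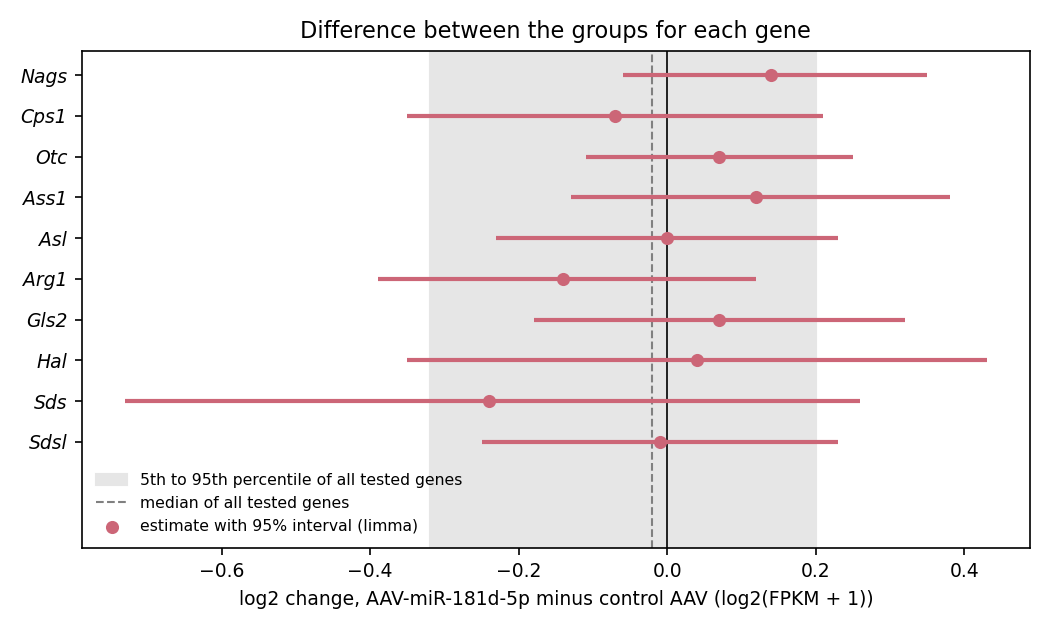
Estimated log2 change of each enzyme gene (point) with its 95% interval (bar), beside the middle 90% of all tested genes (grey band). All 10 intervals include 0, and that of Sds, from -0.73 to 0.26, is the widest.

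Among the enzymes that free ammonia from amino acids, Sds, the serine dehydratase of gluconeogenic liver, varied most. It stood at 80.1, 35.9, 79.4, 60.2 and 98.0 FPKM in controls and at 79.9, 54.4, 56.6, 44.3 and 53.8 FPKM with miR-181d-5p. Control livers alone held both extremes, a 2.73-fold range, and the SD of log2 values was 0.552 in controls against 0.303. The mean was 81.7% of control (70.8 ± 23.6 against 57.8 ± 13.2 FPKM), the largest distance from control of the 10. The log2 change of -0.24 had an SE of 0.23 and a 95% interval of -0.73 to 0.26 (adjusted p = 0.633 by limma). Without control liver 2, the lowest, it was -0.46, with an unadjusted p of 0.0155 and an adjusted p of 0.4, and without control liver 5, the highest, it was -0.10 (adjusted p = 0.8 by limma).

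Sdsl, a serine dehydratase-like gene, lies on the opposite strand 3715 bp from Sds and was the least abundant of the 10, with 161 to 259 reads per liver. Controls were at 5.2, 4.58, 5.43, 5.45 and 6.19 FPKM and miR-181d-5p livers at 6.91, 5.72, 5.49, 4.4 and 4.35 FPKM. The second group spread wider and held both the highest and the lowest value, and the means were 5.37 ± 0.58 and 5.37 ± 1.06 FPKM. The log2 change was -0.01 (95% interval -0.25 to 0.23; adjusted p = 0.975 by limma).

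Hal, histidine ammonia-lyase and the gene with the 8mer shown above, had equal means of 25.9 ± 7.08 and 25.9 ± 3.17 FPKM. Control livers held 26.8, 29.0, 33.3, 14.2 and 26.3 FPKM, and miR-181d-5p livers 28.4, 28.4, 21.2, 24.1 and 27.3 FPKM. All 5 miR-181d-5p livers lay inside the control range, which control liver 4 stretched downward. The log2 change was 0.04 (SE 0.18, 95% interval -0.35 to 0.43; adjusted p = 0.931 by limma). Without control liver 4 it was -0.15 (adjusted p = 0.517 by limma), so its sign rested on that liver. The later enzymes of histidine breakdown, from a list of 4 that includes Hal, were at 44.6 ± 3.70 against 43.1 ± 4.45 FPKM (Uroc1), 37.3 ± 5.53 against 42.4 ± 2.91 FPKM (Amdhd1) and 82.5 ± 9.30 against 86.5 ± 5.81 FPKM (Ftcd), control first, and none passed.

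Gls2, the liver-type glutaminase, stood at 62.5, 45.5, 51.9, 43.0 and 56.5 FPKM in controls and at 62.2, 57.1, 49.0, 59.2 and 44.9 FPKM with miR-181d-5p. All miR-181d-5p livers lay inside the control range. The log2 change was 0.07 (SE 0.11, 95% interval -0.18 to 0.32; adjusted p = 0.786 by limma), and 0.009 without control liver 4 or 0.14 without control liver 1. On the genome Gls2 overlaps Spryd4 on the other strand, which stood at 15.5 ± 0.873 FPKM in controls and 18.6 ± 1.62 FPKM with miR-181d-5p (adjusted p = 0.24 by limma). Sds likewise overlaps Plbd2 (36.5 ± 3.80 and 35.1 ± 3.81 FPKM) and Gm15690, and Nags overlaps Gm11586. These overlaps are of whole gene spans, and no values were given for Gm15690 and Gm11586. No source used here says whether counting used strand. How reads of the shared stretches were assigned was not tested.

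The levels of the 10 genes were far apart. Averaged over all livers, Ass1 (927 FPKM) was followed by Arg1 (450.5), Cps1 (426), Asl (126), Sds (64.3), Gls2 (53.2), Otc (52.8), Hal (25.9), Nags (24.8) and Sdsl (5.37), so the first was 173-fold above the last. In 10 of 10 livers Ass1 exceeded Arg1, Cps1 exceeded Asl, Asl exceeded Sds, Otc exceeded Hal and Nags exceeded Sdsl. This order depends on the gene length behind each FPKM, whose gene models no source used here states. Implied lengths and merged annotated exons differed, at 1891 against 4831 nt for Asl and 1469 against 1694 nt for Sds. For Otc the implied length was the longer, at 4757 against 4241 nt. With other lengths genes may change places, also beyond neighbours, and the counts of livers in each order may change with them. Within the pairs Arg1 and Cps1 (6 of 10 livers), Sds and Gls2 (7), Gls2 and Otc (4) and Hal and Nags (7) the ranges overlapped, so these neighbours did not differ beyond their spread. Ass1 stood above 99.6% of all tested genes and Sdsl above 43.4%. The 10 genes together made up 0.461% ± 0.046 of all FPKM in controls and 0.452% ± 0.027 with miR-181d-5p (SD, n = 5 each).

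The highest and lowest values were spread over 9 of the 10 livers. Control liver 4 was the lowest of 10 livers for Cps1, Asl, Gls2 and Hal, control liver 2 for Ass1 and Sds, and control liver 1 for Otc. Control liver 3 was the highest for Asl, Arg1 and Hal, control liver 1 for Cps1 and Gls2, and control liver 5 for Otc and Sds. Of the miR-181d-5p livers, liver 4 was the highest for Ass1 and Nags and liver 1 for Sdsl, while liver 5 was the lowest for Nags and Sdsl and liver 3 for Arg1. In 8 of 10 enzyme genes the SD of log2 values was larger in controls, and that held for 76.1% of all genes tested. The median SD of the 10 was 0.227 in controls and 0.176 with miR-181d-5p, against 0.170 and 0.106 over all genes.

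**Figure D3:**
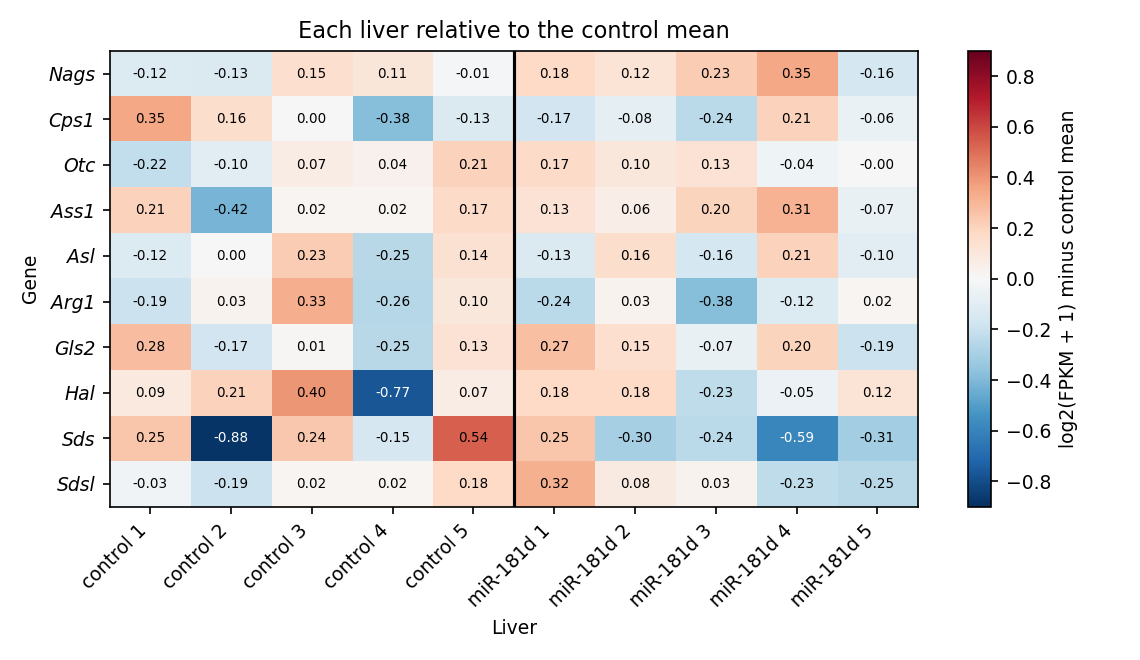
Difference of log2(FPKM + 1) from the control mean for each enzyme gene (row) and liver (column), red above and blue below. The darkest cells are Sds in control liver 2 (-0.88) and Hal in control liver 4 (-0.77), and no row separates the 5 control livers from the 5 miR-181d-5p livers.

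Across livers the enzyme genes varied only partly together. Over the 10 livers, which share the same libraries and scaling, 30 of 45 pairs of them had a Pearson r above 0, with a median of 0.21. The closest pair was Asl and Arg1, consecutive enzymes of the cycle (r = 0.75, Spearman's rho = 0.85), with r = 0.98 in the 5 controls and 0.54 in the 5 miR-181d-5p livers. Sds and Sdsl followed (r = 0.72). The most opposed pair was Cps1 and Otc, the consecutive mitochondrial enzymes, with r = -0.77 and rho = -0.73. With a trend of expression on gene length removed from each liver the r of Cps1 and Otc was -0.23, while that of Asl and Arg1 was 0.77. The closest pair was then Cps1 and Asl (r = 0.79, against 0.38 before the removal). The most opposed pair was then Ass1 and Arg1 (r = -0.34, against -0.35 before). These r values are descriptions and were not tested.

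Genes that supply the cycle lay on both sides of 0. Of 15 tested genes for carriers, ammonia supply and the second arginase, 7 were higher and 8 lower, with a median log2 change of -0.02, and 0 passed in either direction. Glud1, which releases ammonia from glutamate, stood at 435 ± 26.8 against 487 ± 67.3 FPKM. The smallest p values of the list belonged to Aqp9, a channel for glycerol and urea, at 107 ± 13.6 against 125 ± 8.01 FPKM (adjusted p = 0.29 by limma), to Arg2, the mitochondrial arginase, at 1.99 ± 0.686 against 1.36 ± 0.212 FPKM (adjusted p = 0.32), and to Slc7a2, a carrier of cationic amino acids, at 57.3 ± 17.9 against 45.4 ± 2.66 FPKM (adjusted p = 0.401).

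The wider list of amino acid enzymes, mostly of breakdown, leaned higher without any passing. It also holds Asns and Pycr1, which make asparagine and proline, with log2 changes of 0.29 and 0.22. Of 63 tested, 57 were higher and 6 lower, with a median log2 change of 0.12, against 45.5% higher among all genes. Between 56 and 59 were higher under each rescaling, and 0 passed in either direction. Prodh2, which oxidises hydroxyproline, had the smallest p, at 36.6 ± 2.93 FPKM in controls and 43.5 ± 3.03 FPKM with miR-181d-5p (log2 change 0.25, SE 0.07; adjusted p = 0.24 by limma). Haao, of tryptophan breakdown, stood at 32.2 ± 3.64 against 39.0 ± 3.16 FPKM, and Pcbd1, which recycles the cofactor of phenylalanine hydroxylase, at 182 ± 23.0 against 214 ± 9.23 FPKM. At an unadjusted p under 0.05 were 9 of the 63 higher and 0 lower, against 5.04% higher and 9.63% lower over all genes. That count of 9 was 4 with FPKM scaled to a common sum, and also 4 without control liver 2, miR-181d-5p liver 1 or miR-181d-5p liver 4; it was 17 without control liver 1 and 22 without miR-181d-5p liver 5. Hepatocyte markers were higher in a like share, 89.5% against 90.5% of this list. After quantile normalization 13 of 19 hepatocyte markers were higher, against 56 of 63 genes here. Stellate cell, macrophage and bile duct markers had medians of -0.40, -0.26 and -0.62. The part of all these markers in the values of this list was not tested. The 10 enzyme genes, split 5 and 5, were not tested against this list.

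Other genes of the periportal and pericentral zones were counted in the same way. Of 20 other periportal genes 11 were higher and 9 lower, with a median log2 change of 0.03; after quantile normalization or scaling to a common sum, 9 were higher and 11 lower. The 3 with the smallest p were Ctsc, a lysosomal protease (18.6 ± 2.41 against 15.4 ± 1.24 FPKM), Fbp1, of gluconeogenesis (347 ± 53.2 against 414 ± 66.3 FPKM), and Slc7a2 from above. Of 22 pericentral genes 17 were higher, against 45.5% of all genes, with a median of 0.12 and 0 passing. Leaving out 1 liver at a time gave counts from 13 (without control liver 5) to 21 (without control liver 2). The count was 16 with a common sum, 18 after quantile normalization and 19 with median-ratio scaling. At an unadjusted p under 0.05 by limma were 5 of the 22 higher and 0 lower, against 5.04% higher and 9.63% lower over all genes. Glul, the glutamine synthetase, stood at 433 ± 87.1 FPKM in controls and 453 ± 52.1 FPKM with miR-181d-5p (log2 change 0.09, SE 0.14; adjusted p = 0.787 by limma). Gstm1, a glutathione transferase whose reads may be split with near-identical relatives, had the smallest p of that list (1979 ± 152 against 2526 ± 219 FPKM), followed by Cyp7a1, the rate-limiting enzyme of bile acid synthesis (17.3 ± 5.84 against 30.6 ± 10.6 FPKM), and Rgn, a calcium-binding lactonase (286 ± 35.4 against 347 ± 28.1 FPKM).

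Of 25 regulators of these enzymes 11 were higher and 14 lower, with a median of -0.04 and 0 passing. At an unadjusted p under 0.05 by limma were 1 of the 25 higher and 5 lower, against 5.04% higher and 9.63% lower over all genes. The groups did not overlap in 2 of the 25, against 2.47% of all genes. Ppargc1a, a coactivator of fasting metabolism, had the smallest p and groups that did not overlap, at 0.686 ± 0.109 FPKM in controls and 0.423 ± 0.0795 FPKM with miR-181d-5p (adjusted p = 0.232 by limma). Its mean over all livers, 0.554 FPKM, was just above the filter of 0.5 FPKM. Cebpd, a C/EBP transcription factor, followed at 24.9 ± 10.4 against 14.1 ± 2.18 FPKM. Gcgr, the glucagon receptor, through which glucagon induces urea cycle genes, stood at 60.3 ± 4.83 against 69.9 ± 2.95 FPKM, also without overlap (adjusted p = 0.241). The hepatocyte factors Hnf4a and Cebpa, chosen once their values had been seen, showed log2 changes of 0.02 and 0.15. Other factors of the list, named in the same way, went both ways. Cebpb, Foxa3 and Creb1, each at an unadjusted p under 0.05 by limma, showed -0.33, -0.28 and -0.26. Foxa1 and Foxa2 showed 0.25 and 0.29.

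**Figure D4:**
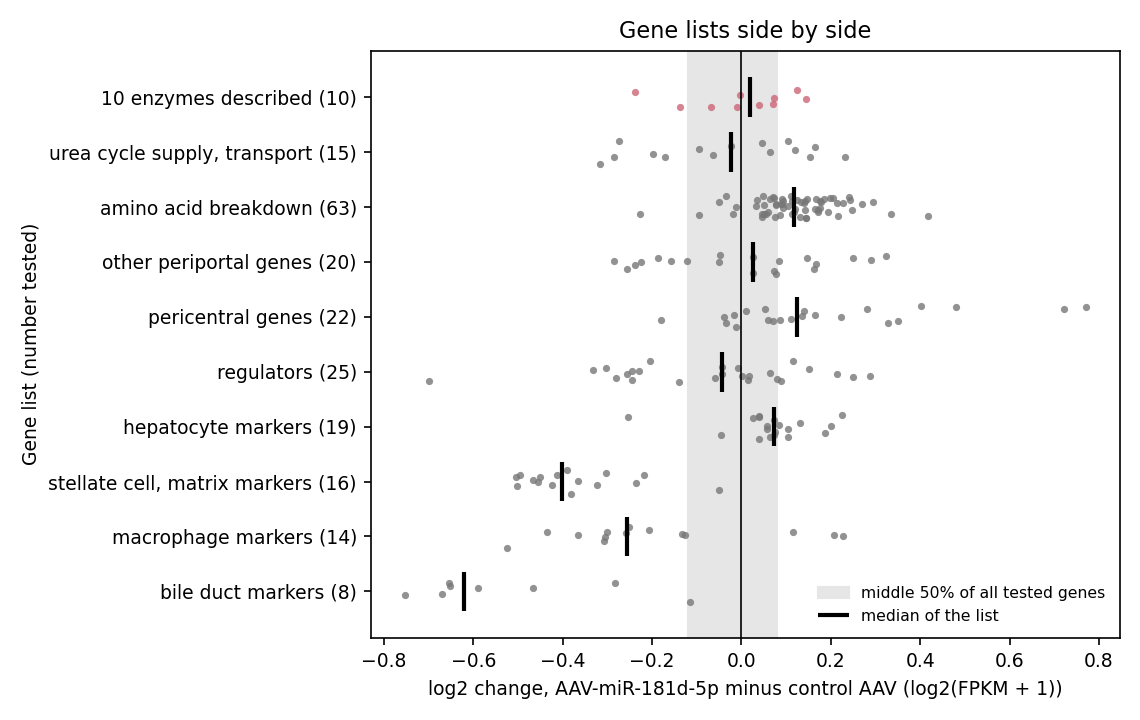
Log2 change of each tested gene (point) and the median (black bar) for the 10 enzyme genes in red and the other gene lists in grey, beside the middle 50% of all tested genes (grey band). The enzyme genes lie on both sides of 0 with a median of 0.02, the amino acid breakdown list has a median of 0.12, and stellate cell, macrophage and bile duct markers have medians of -0.40, -0.26 and -0.62.

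The liver label matched its markers: albumin (Alb) stood at 22375 ± 1562 and 22982 ± 1299 FPKM. Hepatocyte markers had a median log2 change of 0.07, with 17 of 19 higher (13 after quantile normalization). All 16 stellate cell and matrix markers and all 8 tested bile duct markers were lower, 15 of 16 and 8 after quantile normalization, with 0 passing. Summed FPKM ran from 794 to 1066 in controls and from 559.7 to 758 with miR-181d-5p for the stellate list, and from 289 to 535 and 123 to 393 for the bile duct list. Spp1 made up most of the bile duct sum, at 244 to 461 FPKM in controls and 98.7 to 332 FPKM with miR-181d-5p. In whole liver, fewer cells of a type and less RNA per cell cannot be told apart, and the part of these markers in the enzyme values was not tested. The labels number the livers without tying each to its own animal, and the p-values therefore cover only the spread among these 10 samples, which may be technical.

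On mm10 the genes lie as follows, by the GENCODE vM21 spans. Cps1 is at chr1:67123026-67231259, Otc at chrX:10252305-10321024 and Ass1 at chr2:31470207-31520672, on the forward strand. Asl is at chr5:130011258-130029247 and Arg1 at chr10:24915221-24927484, both on the reverse strand. Nags is at chr11:102145513-102149477, Gls2 at chr10:128194457-128210004 and Hal at chr10:93488768-93519304, on the forward strand. Sds (chr5:120476526-120483932, forward) and Sdsl (chr5:120458186-120472810, reverse) are neighbours.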

How the data were processed

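The authors deposited 1 table of FPKM with 1 column per liver. The submitters' processing notes name mm10 as the build and list, without roles, DESeq2 1.18.1 in R 3.4.1, HTSeq 0.13.5 and HISAT2 2.2.1, beside Trimmomatic 0.38 and FastQC 0.11.9. Per the labels' protocols, a mirVana kit was used for RNA extraction and a stranded TruSeq mRNA kit for the libraries. Column names carry group and number, which tied them to samples.

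For all 17217 genes above 0 the FPKM corresponded to whole reads (tolerance 0.02 of a read) over 1 length per gene and 1 total per library; these reads gave the depths and an alternative test. The main test was limma 3.58.1 in R 4.3.3 on log2(FPKM + 1) for the 12053 genes averaging 0.5 FPKM or more over the 10 livers, with a mean-variance trend, group as the only term, two-sided, and Benjamini-Hochberg adjustment over all of them. Scripts were tested on simulated data. Seed matches and positions come from GENCODE vM21, on the same build.

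The enzyme genes and all gene lists were chosen with earlier results of these data known. The genes named beside the 10 are Arg2, Glud1 and Glul, from each list the 3 genes lowest in p, and the 3 with the highest Pearson r to Cps1 and to Nags, without predicted genes, RIKEN clones and pseudogenes. Asns and Pycr1 were added for their role, once their values had been seen. The same holds for the regulators Hnf4a, Cebpa, Cebpb, Foxa3, Creb1, Foxa1 and Foxa2. Of the marker lists only Alb, summed or counted values, and Lyz2 and Spp1 as the main part of their sums are given. The endothelial list (median -0.07, 6 of 10 lower) and the lymphocyte and neutrophil list (median -0.14, 8 of 9 lower) had 0 passing. Livers of 1 group differed by more than counting noise in every pair (lowest chi-square per degree of freedom 9.53). Alternatives were other pseudocounts, filters, scalings, array weights, robust fitting, limma voom on recovered reads, a replicate block, removal of a gene length trend (lowess, span 0.3) and leaving out each liver. The r values of enzyme pairs within groups and without the length trend were added after seeing the data. Other steps ran in Python 3.11.15 (pandas 2.3.3, numpy 2.4.6, matplotlib 3.10.9).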

Additional observations from a re-analysis of the deposited data

Results flagged for a closer look

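Hal in control liver 4 stood at 14.2 FPKM, far below the other control livers (26.3 to 33.3 FPKM): its gap to the nearest was 0.721 of the group's range on the log2 scale, above Dixon's critical value of 0.71 for 5 samples. In all, 20 groups, 2 for each enzyme gene, were examined, and chance flags about 1 in 20. The Hal value rests on 803 reads.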

How the results depend on the processing

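Under the 22 alternatives 0 of the 10 enzyme genes passed, the lowest adjusted p of any being 0.296, for Nags without miR-181d-5p liver 5. Of 220 values, 205 kept their direction and 15 changed it, in 4 genes whose changes were close to 0; none of these changes was called. Asl was 0.020 with median-ratio scaling and 0.008 with array weights, and Sdsl was 0.049 with quantile normalization, 0.008 with median-ratio scaling and 0.041 with array weights; the cause was not tested. Leaving out each liver in turn gave -0.16 to 0.019 for Cps1, -0.064 to 0.055 for Asl, -0.15 to 0.14 for Hal and -0.092 to 0.049 for Sdsl, and, with no change of direction, 0.015 to 0.12 for Otc, 0.020 to 0.18 for Ass1, -0.20 to -0.054 for Arg1, 0.094 to 0.22 for Nags, 0.009 to 0.14 for Gls2 and -0.46 to -0.10 for Sds; the low end for Hal came without control liver 4 and the high end for Cps1 without control liver 1. Over all genes leaving out each liver gave 0 to 3 genes past the threshold, with 3 without control liver 1 and 1 each without control liver 5 and miR-181d-5p liver 3. The replicate block gave 1 (Ccn2, adjusted p = 0.0137 by limma) and 0 enzyme genes. Same-numbered livers did not deviate together (r from -0.283 to 0.015), and 0 of 5 control livers correlated best with its own number. The labels do not say whether equal numbers mark a pair, and these r values cannot decide it. The unadjusted counts of 607 higher and 1161 lower were 997 and 942 after quantile normalization, 347 and 1266 with a common sum, 911 and 1219 with the length trend removed and 384 and 836 with the block; leaving out each liver they ran from 372 to 793 and from 674 to 1794. Sdsl, with at most 259 reads in a liver, is limited most by depth.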

Other observations

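The genes whose log2 values most resembled those of Cps1 over the 10 livers were Shank3 (r = 0.893), Adh7 (r = 0.890) and Sgtb (r = 0.879), at control means of 0.923, 1.65 and 1.79 FPKM, far below the 438 FPKM of Cps1. For Nags they were Lactb (r = 0.930), Cdk5rap1 (r = 0.913) and Ivd (r = 0.912), the last an enzyme of leucine breakdown that stood at 33.6 ± 3.04 FPKM in controls and 36.4 ± 2.79 FPKM with miR-181d-5p. They were picked as the highest of the 12053 tested genes over 10 livers that share scaling, and these r values are a description with no test.

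In the amino acid breakdown list, the genes below were named after their values were seen. Hibadh of valine breakdown was the 1 gene of 63 whose groups did not overlap, at 138 ± 9.69 against 155 ± 5.56 FPKM (adjusted p = 0.288 by limma). Over all genes tested, 2.47% did not overlap. Shmt2, Sardh, Amt, Mccc2 and Ddc were the other genes of that list at an unadjusted p under 0.05, all higher, with log2 changes of 0.14, 0.20, 0.23, 0.18 and 0.42.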
